A study of Mus musculus with 38 samples.

Results

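STAT4 KO and WT Th1 cells were compared while both carried a retroviral vector that expresses T-bet. The comparison rested on 2 of the series' 38 samples, 1 RNA library from STAT4 KO Th1 cells and 1 from WT Th1 cells, each with the vector. It covered the 8523 of 23700 gene entries that reached 3 FPKM (fragments of a gene per transcript length and library size) in either library, with an estimate marked OK in all 14 RNA libraries. Just inside the 3 FPKM minimum was an entry at 3.00105 FPKM in the higher of the 2 libraries, and just outside it one at 2.99575 FPKM. The STAT4 KO mice carry the STAT4<tm1> allele, and STAT4 KO and WT mice are of the C57BL/6J strain. Naive CD4+ cells sorted from lymphoid organs were activated through CD3 and CD28 and infected with pMY-T-bet-IRES-hNGFR. They were grown as Th1 cells with IL-12 and antibody to IL-4, and restimulated through CD3 and CD28 with IL-12 for 2 h. The labels give the age of these cultures as day 5 in one place and 7 days in another. Set beside this pair were STAT4 KO and WT Th1 cells with the control vector pMY-IRES-hNGFR, cultured alike, and STAT4 KO and WT Th1 cells without vector at day 7, restimulated for 2 h. Each genotype had 1 library in each pair and the pairs share no library. A second WT Th1 library without vector stood apart from the others and was used only as an alternative. The sources used here do not say whether vector-positive cells were sorted or whether the libraries came from separate animals. The p-values use spread between different cultures, not between replicates of a group. Whether that spread includes variation between animals is not known. For the T-bet vector pair and its contrast with the other pairs, the spread also draws on Th2 cultures. These were WT and STAT6 KO cells, without vector, with the control vector or with a vector that expresses GATA3.

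STAT4 is the transcription factor that IL-12 activates in T cells, through a receptor made of the chains Il12rb1 and Il12rb2. T-bet, the product of Tbx21, is the lineage-defining factor of Th1 cells, and its expression depends in part on STAT4. Giving T-bet to both genotypes asks which STAT4 KO differences are present when T-bet comes from another source. In bulk RNA, fewer cells that express a gene and less RNA per cell cannot be told apart.

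The targeted gene checked the labels. Stat4 (mm9 chromosome 1, 52065088 to 52164028) had 6.71 FPKM in STAT4 KO and 37.1 FPKM in WT cells with the T-bet vector. Stat4 stood at 7.57 FPKM in STAT4 KO and 41.0 FPKM in WT cells with the control vector and at 17.5 FPKM in STAT4 KO and 60.8 FPKM in WT cells without vector. STAT4 KO libraries were the lower ones in all 3 pairs, and the intervals that Cufflinks lists for the T-bet vector pair, 6.19 to 7.23 FPKM in STAT4 KO and 35.8 to 38.3 FPKM in WT, did not overlap. The second WT library without vector had 15.1 FPKM, below the STAT4 KO library without vector. Which part of Stat4 the allele lacks is not stated in these sources, and FPKM also counts what is left of the transcript.

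Tbx21 (chromosome 11, 96959321 to 96976645) had 137 FPKM in STAT4 KO and 245 FPKM in WT cells with the T-bet vector. Tbx21 stood at 35.1 FPKM in STAT4 KO and 61.0 FPKM in WT cells with the control vector and at 47.9 FPKM in STAT4 KO and 88.4 FPKM in WT cells without vector. Both T-bet vector libraries were thus the highest of their genotype, and the STAT4 KO level was below WT in each pair, with differences on the log2(FPKM + 1) scale of −0.83, −0.78 and −0.87. It fell over the 3 cultures (−0.83 ± 0.09 SE, adjusted p = 0.0351, limma). Fragments of the vector's T-bet cDNA count towards Tbx21, so endogenous and ectopic T-bet cannot be told apart here. The part of this lower T-bet level in the results that follow was not tested.

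Both libraries had the RNA of CD4+ T cells. All 8 T helper markers passed the filter, with a summed level of 990.1 FPKM in STAT4 KO and 1035 FPKM in WT cells, and Cd28 was the 1 marker past 2-fold. None of 8 CD8 T and NK cell markers passed, with sums of 2.34 FPKM in STAT4 KO and 2.63 FPKM in WT cells. None of 7 B cell markers passed (0.756 FPKM in STAT4 KO and 0.689 FPKM in WT cells), nor did any of 8 mast cell and basophil markers (0.745 FPKM in STAT4 KO and 1.82 FPKM in WT cells). Of 14 myeloid and dendritic cell markers, H2-Ab1 and Cd74 passed, the summed level being 13.2 FPKM in STAT4 KO and 25.9 FPKM in WT cells. C1qa was at 0 in both libraries, and Lyz2 was at 0 in STAT4 KO and at 0.0328 FPKM in WT cells. Estimated fragments in genes numbered 24450000 in the STAT4 KO and 24410000 in the WT library with the T-bet vector. Loci shorter than 300 bases, mostly of small RNAs, held 7.66% of all FPKM in STAT4 KO and 5.61% in WT cells with the T-bet vector. Such loci made up 55 of the 8523 entries, and the tallies of named genes below use the 8468 longer loci where they say so.

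More genes were lower than higher in STAT4 KO cells that carried the T-bet vector. Of all entries, 272 (3.19%) were at least 2-fold lower and 86 (1.01%) at least 2-fold higher, taken as a difference of 1 on the log2(FPKM + 1) scale, which understates the change of low genes. The control-vector pair had 293 lower (3.44%) and 81 higher (0.95%), and the pair without vector 349 lower (4.09%) and 325 higher (3.81%). Of the longer loci, 267 were lower and 72 higher with the T-bet vector. In all of these the Cufflinks intervals of the 2 libraries, which cover counting error only, did not overlap. As the genes were chosen by the size of this same difference, the lack of overlap adds no support. The share over all longer loci was not counted. With 1 library a side these counts have no replicate check of their own.

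A limma fit over 12 RNA libraries tested the pair, with the spread taken from the other cultures. These include Th2 cells, WT and STAT6 KO, without vector, with the control vector or with a vector that expresses GATA3. For the Th2 cultures with a vector no restimulation time is listed. At a Benjamini-Hochberg adjusted p under 0.05 the fit called 2 entries (0.0235%), Mir215 as higher and Mir365-2 as lower. An unadjusted p under 0.05 was found for 510 entries. Each of the 2 calls rested on 1 estimated fragment in one library and 0 in the other, and with the longer loci alone the fit called 0. Ttc39c came close to the threshold among longer loci (adjusted p = 0.0521, limma).

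A second limma fit took the 3 pairs as 3 cultures, with culture as a block, and so asked which STAT4 KO differences recurred. The fit takes its spread from how the STAT4 KO difference varies between the cultures. It called 196 genes lower (2.3%) and 64 higher (0.751%), and 2375 had an unadjusted p under 0.05. The calls depended on the control-vector pair: without its STAT4 KO library, or without its WT library, 0 genes were called in either direction. Without the STAT4 KO T-bet vector library 134 genes were called lower and 16 higher, and without the WT T-bet vector library 102 and 12. Leaving out either library without vector raised the calls, to 989 lower and 790 higher without STAT4 KO Th1 and 991 and 812 without WT Th1 replicate 1. With WT Th1 replicate 2 in place of replicate 1 the fit called 0 and 0. Below, a gene "fell" or "rose" where this fit over the 3 cultures called it, and other differences are those of the T-bet vector pair.

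Among genes that reached 3 FPKM in a T-bet vector library, most that were lower in STAT4 KO cells without ectopic T-bet were also lower with it. Of 175 longer loci at least 2-fold lower in both the control-vector pair and the pair without vector, 118 (67.4%) were at least 2-fold lower with the T-bet vector, 57 were within 2-fold and 0 were at least 2-fold higher. Their median difference was −1.27 with the T-bet vector, −1.60 with the control vector and −1.77 without vector. Genes below 3 FPKM in both T-bet vector libraries were left out, so the share depends in part on the pair being judged. Of 24 genes at least 2-fold higher in both other pairs, 12 (50%) were also higher with the T-bet vector. Starting from the T-bet vector pair, 183 of its 267 lower genes (68.5%) were 2-fold lower with the control vector and 132 (49.4%) without vector, and 125 fell over the 3 cultures. Of its 72 higher genes, 41 (56.9%) were 2-fold higher with the control vector and 14 (19.4%) without vector, and 21 rose. The fit over the 3 cultures includes the T-bet vector pair that chose these genes, so its calls are no independent check of them. Over all 8523 entries it called 2.3% lower and 0.751% higher. Past 2-fold in the T-bet vector pair alone were 70 lower and 29 higher genes, and for 0 of these did limma call the difference between the pairs.

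**Figure D1:**
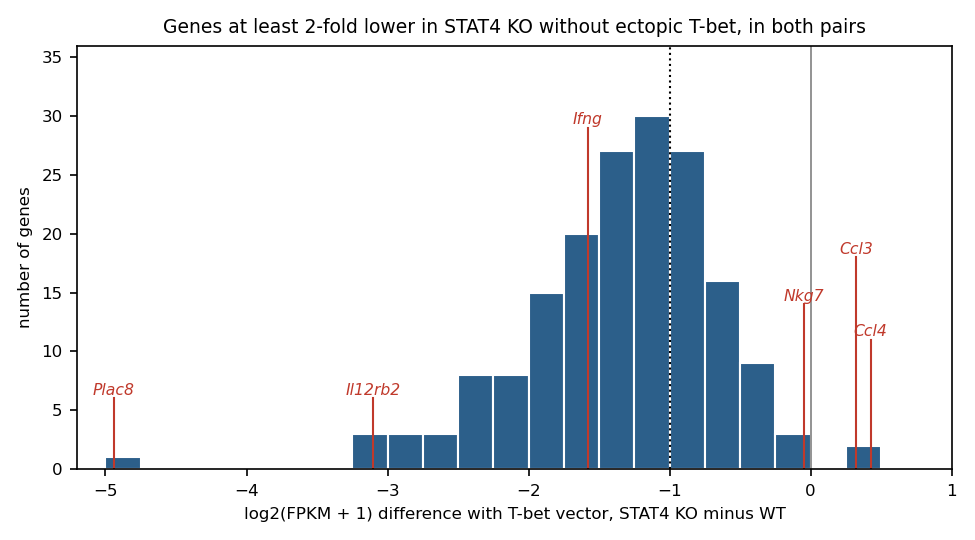
Histogram of the log2(FPKM + 1) difference with the T-bet vector, STAT4 KO minus WT, for the 175 genes at least 2-fold lower in STAT4 KO cells both with the control vector and without vector. The dotted line marks 2-fold lower; Plac8, Il12rb2 and Ifng lie below it among 118 genes, and Nkg7, Ccl3 and Ccl4 are among the 57 within 2-fold.

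Among the receptors through which Th1 cells sense IL-12 and IL-18, Il12rb2 stayed low in STAT4 KO cells. Il12rb2 (chromosome 6, 67242012 to 67326131), the signalling chain of the IL-12 receptor, had 6.62 FPKM in STAT4 KO and 64.5 FPKM in WT cells with the T-bet vector. Il12rb2 stood at 1.89 FPKM in STAT4 KO and 60.0 FPKM in WT cells with the control vector and at 6.47 FPKM in STAT4 KO and 99.9 FPKM in WT cells without vector. All 3 STAT4 KO libraries were below all 3 WT libraries, the STAT4 KO level being 10.3% of WT with the T-bet vector, 3.15% with the control vector and 6.48% without vector. It fell over the 3 cultures (−3.75 ± 0.26 SE, adjusted p = 0.0196, limma). Il12rb1, the partner chain shared with the IL-23 receptor, had 43.2 FPKM in STAT4 KO and 19.8 FPKM in WT cells with the T-bet vector and 28.9 FPKM in STAT4 KO and 28.1 FPKM in WT cells with the control vector. The chains of one receptor thus stood on opposite sides in the T-bet vector pair. Il18r1, the ligand-binding chain for IL-18, had 35.0 FPKM in STAT4 KO and 80.3 FPKM in WT cells and fell (−1.81 ± 0.23 SE, adjusted p = 0.0402, limma). Its partner Il18rap had 29.6 FPKM in STAT4 KO and 42.8 FPKM in WT cells, a difference of −0.52, against −1.81 with the control vector and −2.68 without vector; the contrast between the pairs was not called (1.73 ± 0.75 SE, adjusted p = 0.999, limma). Ifngr1, a chain of the interferon-gamma receptor, had 32.0 FPKM in STAT4 KO and 110.0 FPKM in WT cells, a difference of −1.75, against −0.90 with the control vector and 0.32 without vector. Of 11 measured genes of this list, which includes Stat4, 4 were 2-fold lower and 1 was 2-fold higher with the T-bet vector. Its median was −0.52 there, −0.90 with the control vector and 0.06 without vector. Over all 8523 entries the medians of these pairs were 0.01, −0.00 and 0.13.

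Ifng, the gene of interferon-gamma, the signature Th1 cytokine, was lower in STAT4 KO cells in every pair, but by far less where T-bet was supplied. Ifng (chromosome 10, 117878103 to 117882948) had 1739 FPKM in STAT4 KO and 5199 FPKM in WT cells with the T-bet vector. Ifng stood at 22.6 FPKM in STAT4 KO and 4074 FPKM in WT cells with the control vector and at 60.3 FPKM in STAT4 KO and 8326 FPKM in WT cells without vector. The STAT4 KO level was 33.5% of WT with the T-bet vector, 0.555% with the control vector and 0.724% without vector. On the log2(FPKM + 1) scale the differences were −1.58, −7.43 and −7.09. The difference with the T-bet vector minus the mean of the other pairs was 5.68 ± 0.50 SE (adjusted p = 0.0300, limma). This was 1 of 4 calls for that contrast among 8523 entries (0.0469%), 119 having an unadjusted p under 0.05. The others were Nkg7 and the short loci Mir215 and Mir365-2.

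Nkg7, which encodes a granule membrane protein of cytotoxic lymphocytes, was nearly level between the genotypes when T-bet was supplied. Nkg7 (chromosome 7, 50692508 to 50693616) had 422 FPKM in STAT4 KO and 436 FPKM in WT cells with the T-bet vector, and the Cufflinks intervals, 413 to 431 FPKM in STAT4 KO and 427 to 444 FPKM in WT, overlapped. Nkg7 stood at 8.41 FPKM in STAT4 KO and 158 FPKM in WT cells with the control vector and at 15.6 FPKM in STAT4 KO and 306 FPKM in WT cells without vector. STAT4 KO was far below WT in those pairs, and the differences were −0.05 with the T-bet vector, −4.08 with the control vector and −4.21 without vector. The contrast between them was 4.10 ± 0.30 SE (adjusted p = 0.0140, limma). Both calls depended on single libraries. Without the STAT4 KO library that had no vector the adjusted p was 0.297 for Ifng and 0.148 for Nkg7 (limma). Without the STAT4 KO control-vector library it was 0.234 and 0.179, without STAT6 KO Th2 0.0926 and 0.0558, and without STAT6 KO Th2 with the control vector 0.0955 and 0.0569 for Ifng and Nkg7 (limma). The contrast itself stayed between 5.30 and 6.06 for Ifng and between 3.94 and 4.25 for Nkg7 over the 10 fits that left out 1 library. With all 14 libraries the adjusted p was 0.999 for Ifng and 0.286 for Nkg7 (limma). For Ifng it was also 0.508 after quantile normalization, 0.124 with a pseudocount of 0.1 and 0.116 with no FPKM minimum (limma).

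**Figure D2:**
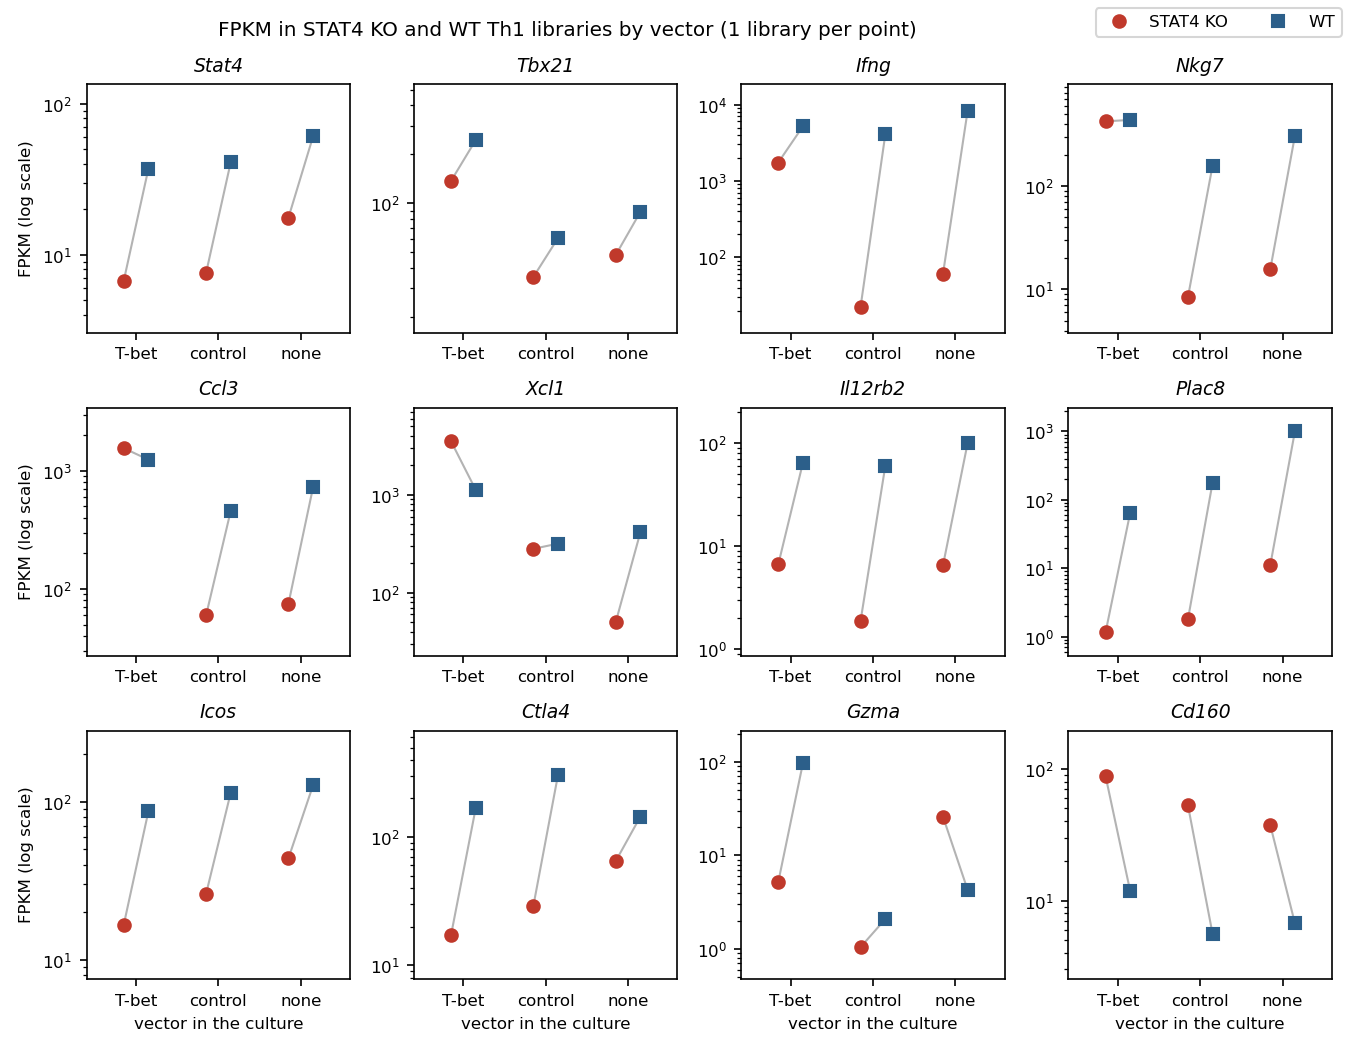
FPKM on a log axis for 12 genes in STAT4 KO (circles) and WT (squares) Th1 libraries with the T-bet vector, the control vector or none; each point is 1 library and a grey line joins each pair. With the T-bet vector Nkg7 was 422 FPKM in STAT4 KO and 436 FPKM in WT cells and Ifng 1739 and 5199 FPKM, while Il12rb2, Plac8, Icos and Ctla4 were lower in STAT4 KO cells in every culture.

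Plac8, the gene of a small cysteine-rich protein of leukocytes, had the largest difference of the 8468 longer loci. Plac8 (chromosome 5, 100982752 to 101001224) had 1.16 FPKM in STAT4 KO and 65.1 FPKM in WT cells with the T-bet vector. Plac8 stood at 1.79 FPKM in STAT4 KO and 178 FPKM in WT cells with the control vector and at 11.1 FPKM in STAT4 KO and 1008 FPKM in WT cells without vector. The STAT4 KO level was 1.77% of WT with the T-bet vector and 1.10% without vector, and Plac8 fell over the 3 cultures (−5.78 ± 0.30 SE, adjusted p = 0.0196, limma). Its contrast between the T-bet vector pair and the others was not called (1.26 ± 0.70 SE, adjusted p = 0.999, limma), nor was that of Il12rb2 (0.97 ± 0.58 SE, adjusted p = 0.999, limma).

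Promoter windows of 4 genes are shown so that the sequences of both kinds of gene can be compared: Nkg7 and Ifng, whose difference was smaller with the T-bet vector, and Il12rb2 and Plac8, whose difference was large in every pair. The windows come from RefSeq (GRCm38.p6, another build than the mm9 of the expression tables) and run 5′ to 3′ on the gene's strand, from 250 bases before to 50 bases after its start. Plac8 has 2 windows there, of which the more upstream is shown. Capitals mark matches to the STAT motif TTCNNNGAA, which reads the same on both strands, and to the T-box motif AGGTGTGA, searched on both strands.
Nkg7, chr7:43436888-43437187, plus strand: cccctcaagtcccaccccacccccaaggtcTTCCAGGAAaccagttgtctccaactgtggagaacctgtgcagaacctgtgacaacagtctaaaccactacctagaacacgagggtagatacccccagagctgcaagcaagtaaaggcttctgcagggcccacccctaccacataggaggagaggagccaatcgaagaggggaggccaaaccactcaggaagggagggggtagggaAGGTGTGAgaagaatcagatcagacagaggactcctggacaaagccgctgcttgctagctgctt
Ifng, chr10:118440796-118441095, plus strand: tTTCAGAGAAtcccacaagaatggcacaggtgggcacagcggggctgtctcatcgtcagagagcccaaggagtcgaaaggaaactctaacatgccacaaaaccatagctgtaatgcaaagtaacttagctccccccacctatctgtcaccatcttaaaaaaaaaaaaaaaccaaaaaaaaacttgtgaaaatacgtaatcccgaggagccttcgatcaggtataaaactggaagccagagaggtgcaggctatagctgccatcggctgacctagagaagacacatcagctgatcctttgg
Il12rb2, chr6:67376139-67376438, minus strand: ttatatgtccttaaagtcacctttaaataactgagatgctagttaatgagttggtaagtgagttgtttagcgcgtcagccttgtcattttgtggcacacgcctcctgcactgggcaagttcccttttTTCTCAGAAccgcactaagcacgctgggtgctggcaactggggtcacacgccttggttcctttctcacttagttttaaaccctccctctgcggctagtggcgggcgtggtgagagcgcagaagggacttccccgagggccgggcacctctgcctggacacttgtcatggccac
Plac8, chr5:100572156-100572455, minus strand: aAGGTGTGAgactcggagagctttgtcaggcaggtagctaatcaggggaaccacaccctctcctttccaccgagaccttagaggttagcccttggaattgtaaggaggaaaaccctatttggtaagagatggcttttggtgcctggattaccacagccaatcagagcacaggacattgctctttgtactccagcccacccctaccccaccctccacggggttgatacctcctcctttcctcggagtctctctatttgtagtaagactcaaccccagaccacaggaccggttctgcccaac

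The Nkg7 window held 1 STAT match, beginning 220 bases before the start, and 1 T-box match 14 bases before it. The Ifng and Il12rb2 windows each held 1 STAT match, 249 and 123 bases before the start, and 0 T-box matches. The Plac8 window held 1 T-box match 249 bases before the start and 0 STAT matches. Among all 32851 windows of the RefSeq set, 8.3% held the STAT motif and 1.28% the T-box motif. Of 265 single-locus genes at least 2-fold lower with the T-bet vector, 184 had a window, of which 28 (15.2%) held the STAT motif and 8 (4.35%) the T-box motif. Of 72 such higher genes 58 had one, with 7 (12.1%) and 1 (1.72%). Of 8439 single-locus genes that passed the filter 6143 had one, with 515 (8.38%) and 68 (1.11%). These shares are descriptions, and a match is no evidence that a factor binds.

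Chemokine genes were not lower as a group in STAT4 KO cells that carried the T-bet vector. Of 8 measured genes, 0 were 2-fold lower and 2 2-fold higher (median 0.37), against 3 and 1 with the control vector (median −0.68) and 4 and 1 without vector (median −1.70). Ccl3 and Ccl4, inflammatory chemokines, lie near each other and are similar in sequence, so shared reads make their separate levels uncertain. Ccl3 had 1559 FPKM in STAT4 KO and 1245 FPKM in WT cells with the T-bet vector. Ccl3 stood at 59.7 FPKM in STAT4 KO and 459.8 FPKM in WT cells with the control vector and at 74.8 FPKM in STAT4 KO and 729.7 FPKM in WT cells without vector. Ccl4 had 3213 FPKM in STAT4 KO and 2394 FPKM in WT cells with the T-bet vector, 350.3 FPKM in STAT4 KO and 977 FPKM in WT cells with the control vector and 363 FPKM in STAT4 KO and 2312 FPKM in WT cells without vector. For both genes the STAT4 KO library was the higher one with the T-bet vector and the lower one elsewhere, but the contrast was called neither for Ccl3 (3.42 ± 0.38 SE, adjusted p = 0.0910, limma) nor for Ccl4 (2.50 ± 0.58 SE, adjusted p = 0.999, limma). Ccl5, another inflammatory chemokine, had 36.8 FPKM in STAT4 KO and 51.3 FPKM in WT cells with the T-bet vector and 7.62 FPKM in STAT4 KO and 52.8 FPKM in WT cells with the control vector.

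Xcl1, the chemokine that attracts cross-presenting dendritic cells, had 3531 FPKM in STAT4 KO and 1125 FPKM in WT cells with the T-bet vector. Xcl1 stood at 281 FPKM in STAT4 KO and 317 FPKM in WT cells with the control vector and at 49.7 FPKM in STAT4 KO and 414 FPKM in WT cells without vector, and its contrast was not called (3.25 ± 1.26 SE, adjusted p = 0.999, limma). The STAT4 KO library was thus above WT with the T-bet vector alone. Ccl1, the ligand of Ccr8, had 1560.1 FPKM in STAT4 KO and 292 FPKM in WT cells with the T-bet vector. Ccl1 stood at 857 FPKM in STAT4 KO and 215 FPKM in WT cells with the control vector and at 477 FPKM in STAT4 KO and 102 FPKM in WT cells without vector. All 3 STAT4 KO libraries were above all 3 WT libraries, and Ccl1 rose over the 3 cultures (2.21 ± 0.13 SE, adjusted p = 0.0196, limma).

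Chemokine receptors were more often lower than higher in both vector pairs, but not without vector. Ccr2, a receptor for monocyte-attracting chemokines, had 5.95 FPKM in STAT4 KO and 46.4 FPKM in WT cells with the T-bet vector. Ccr2 stood at 0.529 FPKM in STAT4 KO and 7.31 FPKM in WT cells with the control vector and at 10.2 FPKM in STAT4 KO and 42.6 FPKM in WT cells without vector. The STAT4 KO library was the lower one in every pair, and Ccr2 fell over the 3 cultures (−2.39 ± 0.18 SE, adjusted p = 0.0213, limma). Cxcr6, a receptor of effector T cells, had 22.0 FPKM in STAT4 KO and 65.8 FPKM in WT cells with the T-bet vector. Cxcr6 stood at 5.36 FPKM in STAT4 KO and 70.1 FPKM in WT cells with the control vector and at 4.64 FPKM in STAT4 KO and 51.2 FPKM in WT cells without vector. All 3 STAT4 KO libraries were below all 3 WT libraries, and Cxcr6 fell as well (−2.74 ± 0.41 SE, adjusted p = 0.0479, limma).

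Cxcr3, the receptor that marks Th1 cells and a known target of T-bet, stood the other way. Cxcr3 had 63.8 FPKM in STAT4 KO and 29.2 FPKM in WT cells with the T-bet vector, 28.6 FPKM in STAT4 KO and 35.5 FPKM in WT cells with the control vector and 48.5 FPKM in STAT4 KO and 150.4 FPKM in WT cells without vector. Ccr7, which guides T cells to lymph nodes, had 46.5 FPKM in STAT4 KO and 316 FPKM in WT cells with the T-bet vector and 50.9 FPKM in STAT4 KO and 279 FPKM in WT cells with the control vector, but 106 FPKM in STAT4 KO and 45.5 FPKM in WT cells without vector. Its direction thus differed between the vector cultures and the culture without vector. Of 16 measured chemokine receptor and homing genes, 6 were 2-fold lower and 1 was 2-fold higher with the T-bet vector (median −0.94), against 5 and 0 with the control vector (median −0.35) and 4 and 5 without vector (median −0.38).

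Gzma and Gzmk, genes of granzymes, the proteases of cytotoxic granules, were highest in WT cells that carried the T-bet vector. Gzma had 5.20 FPKM in STAT4 KO and 97.4 FPKM in WT cells with that vector, 1.05 FPKM in STAT4 KO and 2.09 FPKM in WT cells with the control vector and 26.0 FPKM in STAT4 KO and 4.27 FPKM in WT cells without vector. Gzmk had 1.16 FPKM in STAT4 KO and 12.2 FPKM in WT cells with the T-bet vector and was listed at 0 in both control-vector libraries. Gzmb had 59.4 FPKM in STAT4 KO and 273 FPKM in WT cells with the T-bet vector and 34.7 FPKM in STAT4 KO and 395 FPKM in WT cells with the control vector, but 277 FPKM in STAT4 KO and 53.1 FPKM in WT cells without vector. STAT4 KO was thus below WT for all 3 in the T-bet vector pair and above WT for Gzma and Gzmb without vector. Granzyme genes lie in clusters of similar sequence, and reads may be split between neighbours. The contrast of Gzma between the pairs was not called (−4.87 ± 1.71 SE, adjusted p = 0.999, limma). Of 13 measured cytotoxic granule genes, 4, all granzymes, were 2-fold lower and 0 were higher with the T-bet vector. Ctsw, a cathepsin of cytotoxic cells, had 35.4 FPKM in STAT4 KO and 40.8 FPKM in WT cells with the T-bet vector and 6.19 FPKM in STAT4 KO and 35.7 FPKM in WT cells with the control vector.

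Other cytokine genes stood in both directions. Il10, an anti-inflammatory cytokine, had 0.204 FPKM in STAT4 KO and 6.90 FPKM in WT cells with the T-bet vector and 0.0255 FPKM in STAT4 KO and 8.26 FPKM in WT cells with the control vector, and it fell over the 3 cultures (−3.31 ± 0.28 SE, adjusted p = 0.0257, limma). Csf2, the gene of GM-CSF, had 37.9 FPKM in STAT4 KO and 128 FPKM in WT cells and fell (−2.67 ± 0.33 SE, adjusted p = 0.0394, limma). Il2, the T cell growth factor, had 2301 FPKM in STAT4 KO and 887 FPKM in WT cells with the T-bet vector. Il2 stood at 2173 FPKM in STAT4 KO and 1122 FPKM in WT cells with the control vector and at 3765 FPKM in STAT4 KO and 2762 FPKM in WT cells without vector. The STAT4 KO library was the higher one each time, without a call over the 3 cultures (0.92 ± 0.22 SE, adjusted p = 0.0896, limma). Tnf had 495 FPKM in STAT4 KO and 207 FPKM in WT cells with the T-bet vector, 378 FPKM in STAT4 KO and 234 FPKM in WT cells with the control vector and 1293 FPKM in STAT4 KO and 1351 FPKM in WT cells without vector. Il31, an itch-inducing cytokine of Th2 cells, had 17.9 FPKM in STAT4 KO and 6.13 FPKM in WT cells and rose (1.53 ± 0.20 SE, adjusted p = 0.0405, limma). Of 15 measured Th2 effector genes, 5 were 2-fold lower and 2 2-fold higher with the T-bet vector (median −0.85). The lower ones were Il10, Il13, Il1rl1, Areg and Nfil3, and the higher ones Il31 and Igfbp7. The counts were 5 and 2 with the control vector (median −0.40) and 4 and 5 without vector (median −0.48). Of 17 measured cytokine genes, 5 were 2-fold lower and 3 2-fold higher with the T-bet vector (median 0.20), against 4 and 1 with the control vector (median −0.27) and 5 and 5 without vector (median −0.06).

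**Figure D3:**
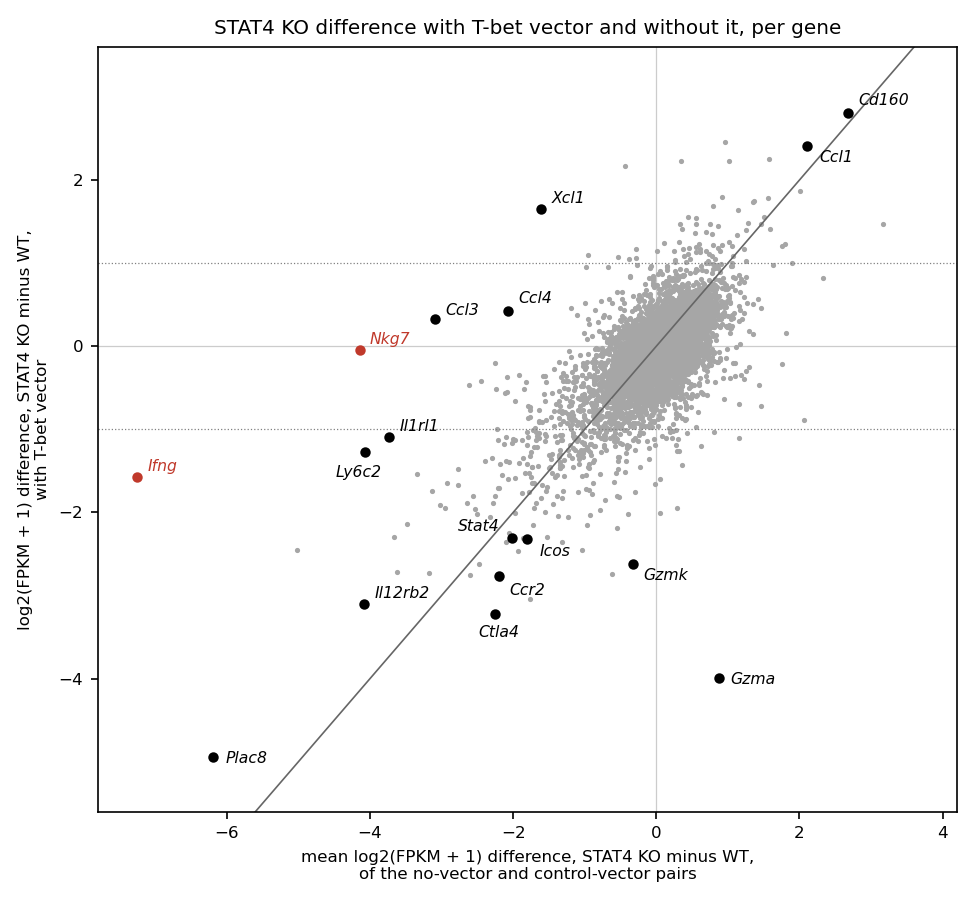
Each point is 1 of the 8468 longer loci; the x axis is the mean log2(FPKM + 1) difference, STAT4 KO minus WT, of the control-vector pair and the pair without vector, and the y axis the same difference with the T-bet vector. On the diagonal the differences are equal and dotted lines mark 2-fold; Ifng and Nkg7, in red, lie 5.68 and 4.10 above the diagonal.

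Costimulatory and inhibitory receptors, which tune T cell activation, were also split. Ctla4, an inhibitory receptor that competes with Cd28, had 17.1 FPKM in STAT4 KO and 168 FPKM in WT cells with the T-bet vector. Ctla4 stood at 28.97 FPKM in STAT4 KO and 306 FPKM in WT cells with the control vector and at 64.8 FPKM in STAT4 KO and 144 FPKM in WT cells without vector. STAT4 KO was the lower one in every pair, without a call over the 3 cultures (−2.57 ± 0.48 SE, adjusted p = 0.0617, limma). Its neighbours are costimulatory receptors: Icos had 16.6 FPKM in STAT4 KO and 87.0 FPKM in WT cells and fell (−1.97 ± 0.18 SE, adjusted p = 0.0297, limma). Cd28 had 32.9 FPKM in STAT4 KO and 86.7 FPKM in WT cells and fell as well (−1.32 ± 0.18 SE, adjusted p = 0.0444, limma). Cd160, a receptor of activated lymphocytes, had the largest positive difference among the longer loci, with 88.0 FPKM in STAT4 KO and 11.7 FPKM in WT cells in the T-bet vector pair. Cd160 stood at 52.9 FPKM in STAT4 KO and 5.58 FPKM in WT cells with the control vector and at 37.5 FPKM in STAT4 KO and 6.71 FPKM in WT cells without vector. All 3 STAT4 KO libraries were above all 3 WT libraries, and Cd160 rose (2.72 ± 0.16 SE, adjusted p = 0.0196, limma). Pdcd1, which encodes the inhibitory receptor PD-1, had 141 FPKM in STAT4 KO and 63.1 FPKM in WT cells with the T-bet vector but 137 FPKM in STAT4 KO and 197 FPKM in WT cells without vector. Of 10 measured inhibitory receptor genes 4 were 2-fold lower and 2 higher with the T-bet vector, and of 21 costimulation and TNF superfamily genes 5 were lower and 1 was higher.

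Feedback genes and cytokine receptors that STAT proteins are known to control were lower in part. Socs3, an inhibitor of cytokine receptor signalling, had 4.51 FPKM in STAT4 KO and 26.1 FPKM in WT cells with the T-bet vector and fell over the 3 cultures (−1.79 ± 0.22 SE, adjusted p = 0.0387, limma). Pim2, a survival kinase, had 25.2 FPKM in STAT4 KO and 71.7 FPKM in WT cells and fell (−1.49 ± 0.13 SE, adjusted p = 0.0257, limma). Socs1, Cish and Pim1, also feedback genes, were within 2-fold, at −0.64, −0.42 and −0.36 on the log2(FPKM + 1) scale. Of 12 measured feedback genes 3 were 2-fold lower and 0 higher. Il2rb, the beta chain of the IL-2 and IL-15 receptors, had 125 FPKM in STAT4 KO and 267 FPKM in WT cells and fell (−1.39 ± 0.19 SE, adjusted p = 0.0432, limma). Il7r, the IL-7 receptor chain, had 2.16 FPKM in STAT4 KO and 15.1 FPKM in WT cells and fell (−1.66 ± 0.24 SE, adjusted p = 0.0473, limma). Il2rg, the gamma chain these receptors share, had 339 FPKM in STAT4 KO and 293 FPKM in WT cells. Of 7 measured receptors of that family 2 were 2-fold lower and 0 higher.

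Of 19 measured transcription factors that act with T-bet or in other lineages, 8 were 2-fold lower in STAT4 KO and 0 were higher with the T-bet vector, and 8, Tbx21 among them, fell over the 3 cultures. Hopx, a homeodomain cofactor, had 9.08 FPKM in STAT4 KO and 36.3 FPKM in WT cells and fell (−2.39 ± 0.30 SE, adjusted p = 0.0392, limma). Nfil3, a basic leucine zipper repressor, had 5.46 FPKM in STAT4 KO and 17.6 FPKM in WT cells and fell (−1.73 ± 0.12 SE, adjusted p = 0.0196, limma). Runx3, a partner of T-bet at Ifng, had 12.2 FPKM in STAT4 KO and 26.4 FPKM in WT cells and fell (−1.39 ± 0.21 SE, adjusted p = 0.0479, limma). Eomes, a T-box relative of T-bet, had 2.59 FPKM in STAT4 KO and 6.35 FPKM in WT cells and fell (−1.47 ± 0.20 SE, adjusted p = 0.0443, limma). Gata3, the Th2 factor, was nearly level, with 21.3 FPKM in STAT4 KO and 19.9 FPKM in WT cells. Of 16 naive and memory genes 6 were 2-fold lower and 0 higher (median −0.84), among them Satb1, a chromatin organiser, with 30.1 FPKM in STAT4 KO and 128 FPKM in WT cells.

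Outside the immune genes, a few metabolic genes were lower. Dgat1, an enzyme of triglyceride synthesis, had 6.80 FPKM in STAT4 KO and 50.8 FPKM in WT cells with the T-bet vector and fell over the 3 cultures (−3.03 ± 0.29 SE, adjusted p = 0.0318, limma). Hif1a, a transcription factor of the hypoxia response, had 71.5 FPKM in STAT4 KO and 180.1 FPKM in WT cells and fell (−1.62 ± 0.14 SE, adjusted p = 0.0257, limma). Egln3, which hydroxylates it, had 14.5 FPKM in STAT4 KO and 67.3 FPKM in WT cells and fell (−3.04 ± 0.44 SE, adjusted p = 0.0473, limma). Gadd45g, a stress-response gene that promotes p38 signalling in Th1 cells, had 18.8 FPKM in STAT4 KO and 121 FPKM in WT cells and fell (−2.52 ± 0.10 SE, adjusted p = 0.0196, limma). Of 19 glycolysis genes 3 were 2-fold lower, and of 13 fatty acid and triglyceride genes 4, with 0 higher in each list. Among immune genes, of 25 interferon response genes 4 were 2-fold lower and 0 higher with the T-bet vector. In that pair 21 of the 25 were lower in STAT4 KO by any amount, as were 4180 of all 8523 entries. The interferon response median was −0.43 there, −0.08 with the control vector and −0.36 without vector. None of 25 cell cycle, 19 respiratory chain, 15 MHC class I presentation or 11 BCL2 family genes was past 2-fold with the T-bet vector. Over all entries 3.19% were 2-fold lower and 1.01% higher, so a count of 0 in lists of this size is near that share. The 6 measured histone and small RNA genes kept as a sign of RNA quality were all within 2-fold and all lower in STAT4 KO, with a median of −0.48; the part of this in the results was not tested.

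**Figure D4:**
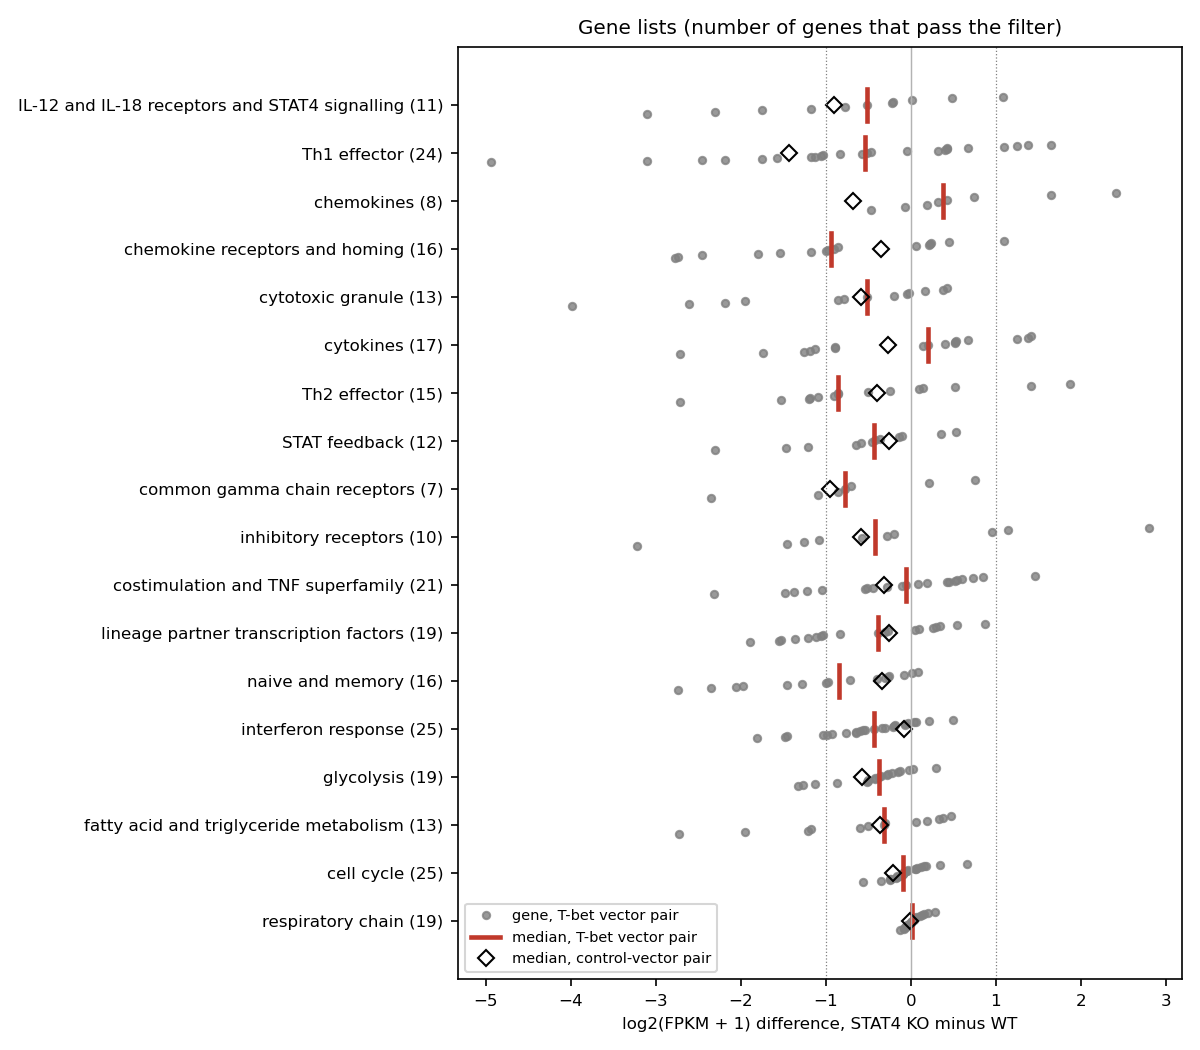
Differences in log2(FPKM + 1), STAT4 KO minus WT, with the T-bet vector for the genes of 18 lists that pass the filter (grey points, 1 per gene), with the list's median in that pair (red bar) and in the control-vector pair (open diamond); dotted lines mark 2-fold. The chemokine median was 0.37 with the T-bet vector and −0.68 with the control vector, and the Th1 effector medians were −0.54 and −1.44.

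Over the Th1 effector list, 10 of 24 measured genes were 2-fold lower and 4 were 2-fold higher with the T-bet vector (median −0.54). The control-vector pair had 15 lower and 0 higher (median −1.44), and the pair without vector 16 and 1 (median −2.10). The lower genes with the T-bet vector included Ifng, Il12rb2, Il18r1, Gzmb, Runx3, Eomes, Furin, Plac8 and Ifngr1, and the higher ones were Cxcr3, Xcl1, Tnf and Il2. Lists overlap, so that a gene may count in several, and the counts stand beside a background of 3.19% lower and 1.01% higher.

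Some of the largest differences lay outside these groups, though Igfbp7, named below, is on the Th2 effector list. Gimap7, a GTPase gene of lymphocytes with close paralogs, had 3.80 FPKM in STAT4 KO and 32.4 FPKM in WT cells with the T-bet vector and fell over the 3 cultures (−2.39 ± 0.17 SE, adjusted p = 0.0196, limma). Ttc39c had 0.231 FPKM in STAT4 KO and 7.28 FPKM in WT cells and fell (−2.65 ± 0.14 SE, adjusted p = 0.0196, limma). Ramp3, a coreceptor subunit of the adrenomedullin receptor, had 7.94 FPKM in STAT4 KO and 72.3 FPKM in WT cells and was not called (−2.19 ± 0.37 SE, adjusted p = 0.0562, limma). Mid1, a ubiquitin ligase bound to microtubules, had 46.1 FPKM in STAT4 KO and 12.7 FPKM in WT cells and rose (1.63 ± 0.12 SE, adjusted p = 0.0212, limma). Igfbp7, a secreted binding protein, had 25.9 FPKM in STAT4 KO and 6.36 FPKM in WT cells and rose (1.96 ± 0.16 SE, adjusted p = 0.0257, limma). Pou2f2, a lymphocyte octamer-binding factor, had 116 FPKM in STAT4 KO and 36.5 FPKM in WT cells and rose (1.31 ± 0.19 SE, adjusted p = 0.0479, limma). Its coactivator Pou2af1 had 124 FPKM in STAT4 KO and 37.8 FPKM in WT cells with the T-bet vector but 56.3 FPKM in STAT4 KO and 55.2 FPKM in WT cells without vector, and was not called (1.10 ± 0.36 SE, adjusted p = 0.142, limma). Il1r2, a decoy receptor for IL-1, had 11.8 FPKM in STAT4 KO and 1.74 FPKM in WT cells with the T-bet vector but 2.48 FPKM in STAT4 KO and 7.04 FPKM in WT cells without vector.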

How the data were processed

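RNA was measured in 14 libraries, prepared with the mirVana and TruSeq kits and sequenced as single reads, per the labels' protocols. The deposited gene tables hold FPKM, which per the file headers is the output of Cufflinks as run by the authors. TopHat, Cufflinks and build mm9 are named in the submitters' processing notes, with no version or annotation. The tables hold no read counts: fragments were estimated from the width of the Cufflinks intervals, and numbered 21900000 to 38530000 per library, so no count test was run.

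Of 23700 entries, 8665 reached 3 FPKM in either T-bet vector library, and 8523 of these, of which 39 belong to symbols listed at several loci, had an estimate marked OK in every library. Differences are of log2(FPKM + 1), STAT4 KO minus WT. The tests (R 4.3.3, limma 3.58.1, lmFit and eBayes with trend) were adjusted over all 8523 entries. The 12-library fit had terms for each knockout (STAT4, STAT6), each expression vector (T-bet, GATA3), lineage, vector culture and the interaction of each knockout with its vector (3 residual degrees of freedom), and assumes that a lone library varies like the others. It leaves out WT Th1 replicate 2 and T-bet KO Th1, in which loci under 300 bases held 21.0% and 22.4% of FPKM, against 4.44% to 7.66% elsewhere. The fit over 3 cultures had 6 libraries and 2 residual degrees of freedom.

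On simulated data with 8344 genes, 100 genes were given a log2 change of 1 and 100 a log2 change of 2. Of these, the 12-library fit called 15 and 90 for the T-bet vector pair and 3 and 60 for the contrast between pairs, and the fit over 3 cultures called 78 and 99. Unchanged genes called numbered 3, 1 and 10. Noise was normal, independent between libraries and drawn with the spread of the 12-library fit. For the fit over 3 cultures, each gene's change was the same in all 3 STAT4 KO libraries. Recovery was thus measured under the fits' own assumptions. It does not show how well they work on the real libraries.

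The members and lists were chosen with earlier results of these data known. Of 528 listed symbols 412 passed the filter. Genes named in the text were drawn from the lists, the 15 largest rises and falls, the 8 largest gaps to the other pairs in each direction, and Stat4 and Tbx21; not every gene of these sets is named, and a gene is not reported here. The restriction of these ranks to loci of 300 bases or more was added after seeing the data. Other pseudocounts, FPKM minimums, normalizations and library sets were tried. Promoter sequences are from RefSeq (GRCm38.p6). The ChIP samples are not analysed here.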

Additional observations from a re-analysis of the deposited data

Results flagged for a closer look

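The STAT4 KO difference with the T-bet vector departed from that in the other pairs for 4 entries by the limma test of that contrast. For Ifng the contrast was 5.68 ± 0.50 SE on the log2(FPKM + 1) scale (adjusted p = 0.0300, limma), with the STAT4 KO library lower than WT in 3 of 3 pairs. For Nkg7 it was 4.10 ± 0.30 SE (adjusted p = 0.0140, limma), with STAT4 KO lower in 3 of 3 pairs and by only 0.05 on that scale with the T-bet vector. For Mir215 it was 6.19 ± 0.35 SE (adjusted p = 0.00356, limma), on 71.8 FPKM in STAT4 KO and 0 FPKM in WT cells with the T-bet vector. For Mir365-2 it was −11.50 ± 0.29 SE (adjusted p = 3.82e-05, limma), on 0 FPKM in STAT4 KO and 57.9 FPKM in WT cells with the T-bet vector. Each of these micro RNA values rested on 1 estimated fragment. With 1 library a group, no group was large enough for a search for outlying samples.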

How the results depend on the processing

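The counts at 2-fold were 64 to 109 higher and 237 to 348 lower under other pseudocounts, minimums and normalizations, apart from 181 lower with a minimum of 10 FPKM. The 12-library fit called 1 entry higher and 1 lower in the T-bet vector pair and 4 for the contrast between pairs. Higher calls numbered 0 with a pseudocount of 0.1, with a minimum of 10 FPKM and with loci of 300 bases or more (chosen after seeing the data), 28 with no FPKM minimum and 5 with the 6 Th1 libraries only. Lower calls numbered 2 with a minimum of 1 FPKM, 31 with none, 4 after upper-quartile scaling, 0 with longer loci or all 14 libraries and 3 with the 6 Th1 libraries. Contrast calls numbered 2 with a pseudocount of 0.1 or longer loci, 22 with no minimum, 1 with all 14 libraries and 8 with the 6 Th1 libraries. Without 1 library, the counts ranged from 1 to 3, 1 to 2 and 1 to 6. The fit over 3 cultures called 64 higher and 196 lower. It called 126 higher after quantile normalization, and 0 and 0 with no minimum, with cultures not matched or with WT Th1 replicate 2 in place of replicate 1. With both WT Th1 libraries it called 0 and 2, and without 1 library 0 to 812 and 0 to 991. The cause of these shifts was not tested. For single genes and settings, the difference with the T-bet vector stayed within the spread 1315 times and moved beyond it 23 times; over the 3 cultures a call was kept or stayed absent 209 times, was lost 104 times and was gained 6 times; for the contrast the figures were 196 and 13, with 0 gained. The changes over the 3 cultures and the contrasts kept their sign for each of these genes in every setting. For the difference with the T-bet vector no turn of direction was recorded, but sign changes of differences below 2-fold were not counted. As to pairing by replicate number, no paired analysis was possible because the groups share only number 1. The fit over 3 cultures paired the libraries by culture instead. With 1 library a side, a difference in the T-bet vector pair has no replicate of its own.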
